A study of Mus musculus with 60 samples.

Results

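The 8 chemokine ligand genes described here, Ccl3, Ccl4, Ccl5, Ccl6, Ccl9, Cxcl2, Cxcl10 and Cxcl16, were taken by name from the 49315 genes counted in whole blood of 60 mice, and each symbol matched 1 gene ID. Male CD2F1 mice, aged 5 to 6 weeks at purchase and carrying no transgene, were gavaged with vehicle or with BIO 300, an oral powder form of the isoflavone genistein that was mixed into the vehicle, in 12 doses given 12 h apart over 6 days. The labels name the dose groups Low, Med and High, which the study's methods give as 50, 100 and 200 mg/kg. Each of the 10 groups held 6 mice, and each mouse was bled once. Vehicle, Low, Med and High groups were bled 24 h after dosing ended (Day 0), and other mice of the same 4 treatments 48 h after dosing ended (Day 1). A vehicle group and a High group received 9.2 Gy of total body irradiation (TBI) on Day 0 and were bled 24 h later, on Day 1. Blood was drawn at the inferior vena cava, and the RNA of all its cells went into 1 library per mouse.

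Chemokines are small secreted proteins that bind G protein-coupled receptors on leukocytes and direct their movement. CC ligands such as Ccl3, Ccl4 and Ccl5 act through receptors on T cells, NK cells and monocytes, while CXC ligands such as Cxcl2 act mainly on neutrophils. Circulating leukocytes express ligand genes, and ionizing radiation kills lymphocytes within a day while neutrophils are released from the marrow. In bulk blood, fewer cells of a type and less RNA per cell cannot be told apart.

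Cxcl2 and Cxcl10 lie on chromosome 5, and Cxcl16 and the 5 CC genes on chromosome 11 (GRCm38, GENCODE M21 gene models). Cxcl2 (ENSMUSG00000058427) spans chr5:90903871-90905938 on the plus strand with 2068 exonic bases, and Cxcl10 (ENSMUSG00000034855) spans chr5:92346638-92348889 on the minus strand with 2252. Cxcl16 (ENSMUSG00000018920) spans chr11:70453983-70459984 on the minus strand with 3021 exonic bases. The CC genes stand in 1 cluster. Ccl5 (ENSMUSG00000035042) spans chr11:83525778-83530518, Ccl9 (ENSMUSG00000019122) chr11:83572919-83578636, Ccl6 (ENSMUSG00000018927) chr11:83587882-83593087 and Ccl3 (ENSMUSG00000000982) chr11:83647844-83649355, all on the minus strand. Ccl4 (ENSMUSG00000018930) spans chr11:83662584-83664683 on the plus strand. Cxcl10 shares 133 exonic bases with Art3 and Cxcl16 shares 552 with Zmynd15, both on the opposite strand, and since the counting strand was not stated, reads of these stretches could not be assigned with certainty.

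Promoter sequences are shown for the 3 ligands that were higher after TBI in vehicle-treated mice, Cxcl2, Cxcl10 and Ccl6. The 300 bases around each start site (250 before and 50 after, RefSeq, GRCm38.p6) were searched on both strands for the letters GGG, any 2 bases and TTTCC, as in an NF-kB site, and for GAAA, any 2 bases and GAAA, as in an interferon response element. Each line holds the 250 bases ahead of the start site, 5′ to 3′ on the gene's strand, with matches in capitals.
Cxcl2: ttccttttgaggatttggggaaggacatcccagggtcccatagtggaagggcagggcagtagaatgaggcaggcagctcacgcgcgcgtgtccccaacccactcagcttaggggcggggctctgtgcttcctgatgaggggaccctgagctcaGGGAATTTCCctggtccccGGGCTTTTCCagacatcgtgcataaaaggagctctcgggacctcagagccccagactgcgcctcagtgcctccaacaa
Cxcl10: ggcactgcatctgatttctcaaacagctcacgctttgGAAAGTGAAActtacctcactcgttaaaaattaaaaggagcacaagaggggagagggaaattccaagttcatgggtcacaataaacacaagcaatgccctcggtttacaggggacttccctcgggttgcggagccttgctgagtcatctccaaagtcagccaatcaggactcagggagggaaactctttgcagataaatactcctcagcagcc
Ccl6: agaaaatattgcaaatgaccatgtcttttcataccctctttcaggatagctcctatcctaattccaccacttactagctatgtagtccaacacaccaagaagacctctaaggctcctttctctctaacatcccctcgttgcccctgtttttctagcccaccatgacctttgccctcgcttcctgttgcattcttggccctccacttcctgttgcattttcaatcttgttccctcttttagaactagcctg
The Cxcl2 window is chr5:90903649-90903898 (plus strand), the Cxcl10 window chr5:92348890-92349139 (minus strand) and the Ccl6 window chr11:83593088-83593337 (minus strand). Cxcl2 held 2 matches to the NF-kB letters, which begin 97 and 78 bases before the start site, and Cxcl10 held 1 match to the interferon letters, 213 bases before it. The Ccl6 and Ccl3 windows held neither set of letters, and Ccl9 held 1 NF-kB match on its reverse strand. No match overlapped another. Only these letters were searched, so a binding site spelled otherwise, in Cxcl10 or any other window, would not be found. Of all 32851 promoter windows, 1.63% held the NF-kB letters and 3.44% the interferon letters. RefSeq sequences matched 5 of the 8 genes, and Ccl4, Ccl5 and Cxcl16 had no entry.

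Levels are CPM, read counts relative to library size, on a scale set by trimmed mean of M values (TMM) over all 60 mice. Total counts ranged from 15099415 to 45589415 per mouse, with a median of 24877993.5. Per kilobase of exon and averaged over all mice, the ligands ranked Ccl6 (106 CPM per kb), Ccl5 (31.9), Ccl9 (11.0), Ccl3 (3.10), Ccl4 (2.25), Cxcl16 (0.326), Cxcl10 (0.314) and Cxcl2 (0.115). Within the groups this order changed at 2 places, since Cxcl10 lay above Cxcl16 in Med and High mice on Day 1 and in both TBI groups, and Ccl9 above Ccl5 in the vehicle TBI group. Cxcl2 was near the limit of detection outside the irradiated groups, with no read in 24 of 60 mice. In all, 10 libraries held over 100 CPM of Alb, the liver gene for albumin, which blood cells do not make. They were mice 17, 1, 9 and 21 on Day 0, mice 29, 37 and 43 on Day 1, mice 49 and 51 in the vehicle TBI group and mouse 57 in the High TBI group. Results that rest on them are given with and without these 10 mice.

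Across the 8 unirradiated groups, mean levels ran from 2.13 ± 0.134 CPM (Low, Day 0) to 3.34 ± 0.99 CPM (Med, Day 1) for Ccl3, from 1.02 ± 0.315 (vehicle, Day 0) to 2.56 ± 1.43 CPM (High, Day 1) for Ccl4 and from 25.8 ± 10.1 (vehicle, Day 0) to 57.1 ± 47.9 CPM (High, Day 1) for Ccl5 (SD, n = 6 each). The myeloid ligands ran from 118 ± 5.07 (Med, Day 0) to 187 ± 44.0 CPM (Med, Day 1) for Ccl6 and from 24.9 ± 10.8 (High, Day 1) to 39.4 ± 8.71 CPM (vehicle, Day 1) for Ccl9. For Cxcl10 they ran from 0.311 ± 0.160 (Low, Day 0) to 0.638 ± 0.541 CPM (High, Day 1), and for Cxcl16 from 0.350 ± 0.265 (Med, Day 1) to 1.14 ± 0.365 CPM (vehicle, Day 1). The groups of Day 1 at 100 and 200 mg/kg thus held, on the TMM scale, the highest unirradiated means of 5 of these 7 genes and the lowest of the other 2. Cxcl2 stayed between 0.0181 ± 0.0443 and 0.0728 ± 0.101 CPM.

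When the 10 groups were ordered by mean level, the lowest group was vehicle TBI for Ccl3, Ccl4 and Ccl5, and the highest group was vehicle TBI for Ccl6, Ccl9, Cxcl2, Cxcl10 and Cxcl16. For Ccl9 and Cxcl16 this rank rested on mice 49 and 51, since the medians of that group were 10.5 and 0.443 CPM. Without the libraries rich in Alb, its Ccl9 mean of 7.99 CPM was the lowest of the 10 groups and its Cxcl16 mean was 0.396 CPM. For every gene, all 9 pairs of neighbours in this order overlapped in their mice. In 7 genes a single neighbouring pair differed in mean by more than the larger SD, and for Ccl9 no pair did.

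**Figure D1:**
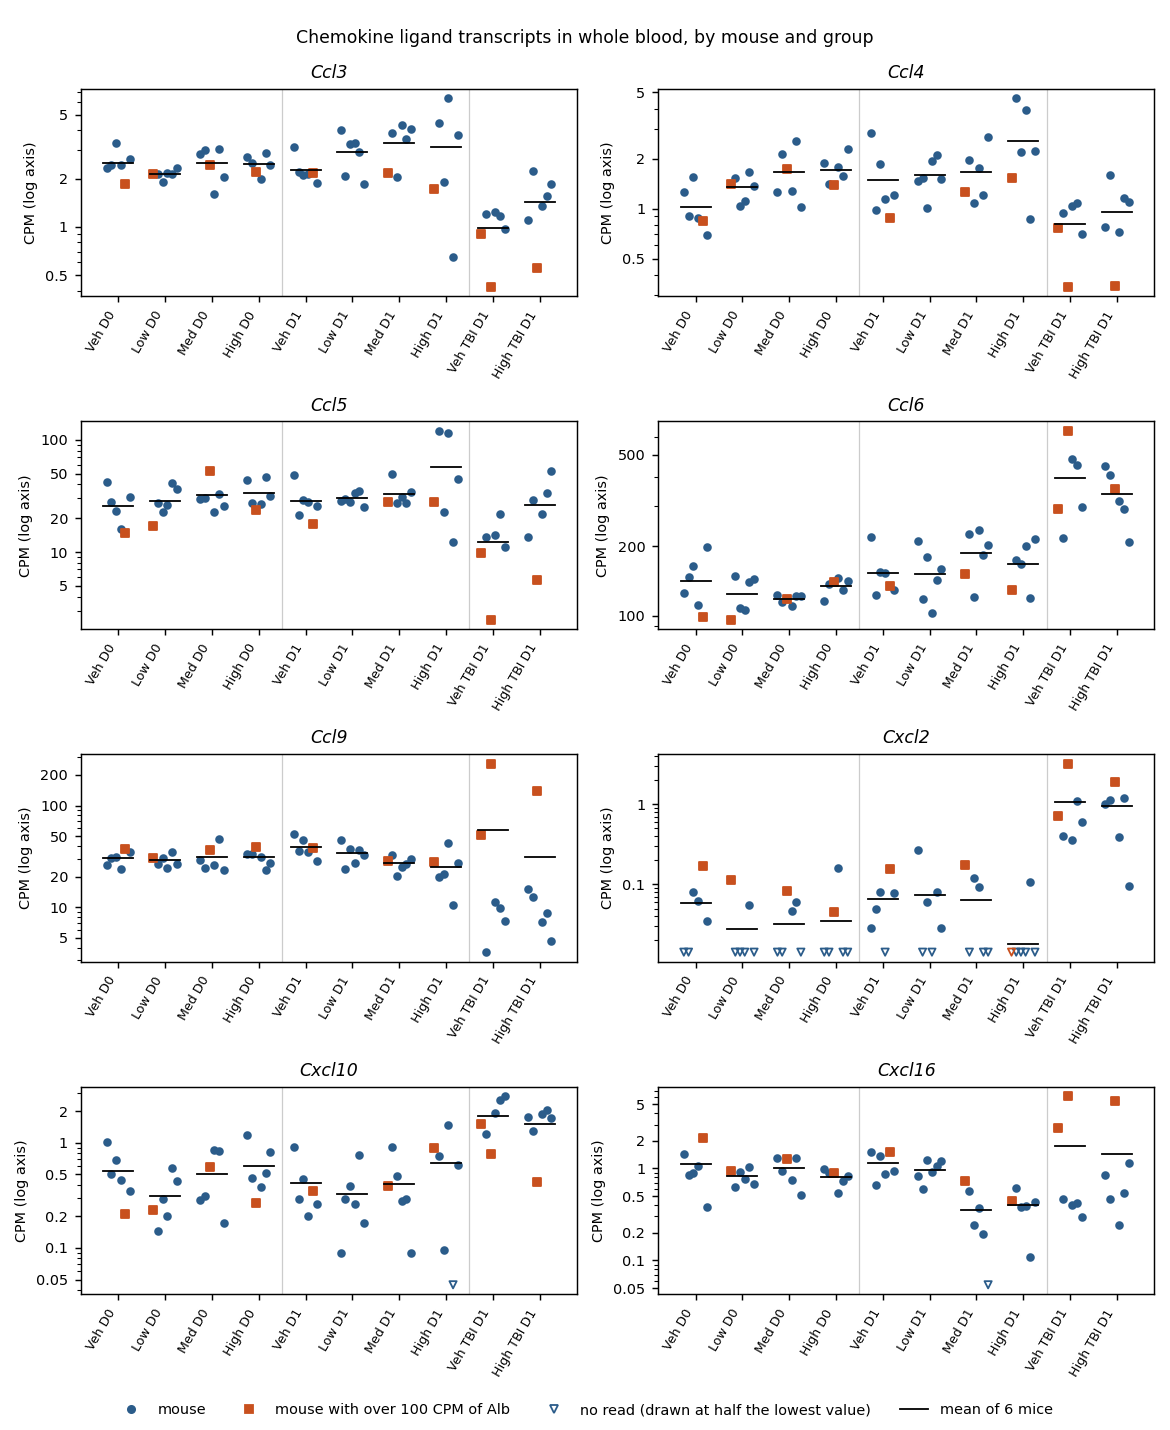
CPM on a log axis for each of the 8 ligand genes in the 10 groups of 6 mice, with 1 point per mouse, a bar at the group mean, squares for the 10 libraries over 100 CPM of Alb and open triangles for mice without a read. Cxcl2 stands at 0.0955 to 3.21 CPM in the 12 irradiated mice and at 0 to 0.268 CPM in the other groups, while Ccl9 and Cxcl16 are split within the irradiated groups by the squares.

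Irradiation was examined first in vehicle-treated mice, as vehicle TBI against unirradiated vehicle on Day 1. Genes were called differentially expressed (DEGs) by edgeR's quasi-likelihood test where the adjusted p lay under 0.05 and the level differed by more than 1 on the log2 scale in either direction. Ccl6, Cxcl2 and Cxcl10 were higher and Ccl3 and Ccl5 were lower, 5 of 8 members, where 36% of all 25146 genes tested were DEGs (19.6% higher, 16.4% lower). The members' median log2 fold change was 0.52, against 0.09 over all genes. The groups did not overlap for 2 members, Ccl3 and Cxcl2, where 25% of all genes did not.

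Ccl3, Ccl4 and Ccl5 are made by activated T cells and NK cells. Ccl3 (MIP-1α) ranged from 1.87 through a median of 2.16 to 3.14 CPM in the unirradiated mice, and from 0.423 through 1.07 to 1.24 CPM after TBI. Every irradiated mouse was below every unirradiated mouse, and the log2 fold change was -1.24 (SE 0.27, edgeR adjusted p = 0.0026). Ccl5 (RANTES) ranged from 17.9 through 26.6 to 48.8 CPM without TBI and from 2.51 through 12.5 to 21.7 CPM with it. The groups overlapped, since 1 irradiated mouse at 21.7 CPM lay among the lower unirradiated mice, and the log2 fold change of Ccl5 was -1.24 (SE 0.40, edgeR adjusted p = 0.023). Ccl4 (MIP-1β) had a log2 fold change of -0.90 (SE 0.36, edgeR adjusted p = 0.055), with 0.811 ± 0.276 CPM in irradiated and 1.49 ± 0.752 CPM in unirradiated mice (mean ± SD, n = 6 each), and did not pass.

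Markers of lymphocytes were lower in the same libraries. The summed level of 7 NK cell genes was 11.6 to 92.5 CPM after TBI and 76.4 to 195 CPM without, with 5 of 7 genes called lower, and that of 8 T cell genes was 28.9 to 119 against 356 to 446 CPM, with 8 of 8 called lower. The lowest of the 60 mice in both Ccl5 (2.51 CPM) and the NK cell sum (11.6 CPM) was mouse 51. Without the libraries rich in Alb, Ccl3 (-0.98, edgeR adjusted p = 0.0015) and Ccl5 (-0.97, edgeR adjusted p = 0.0029) kept their direction and fell just under the fold limit. Whether the lymphocyte content accounts for these differences was not tested.

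**Figure D2:**
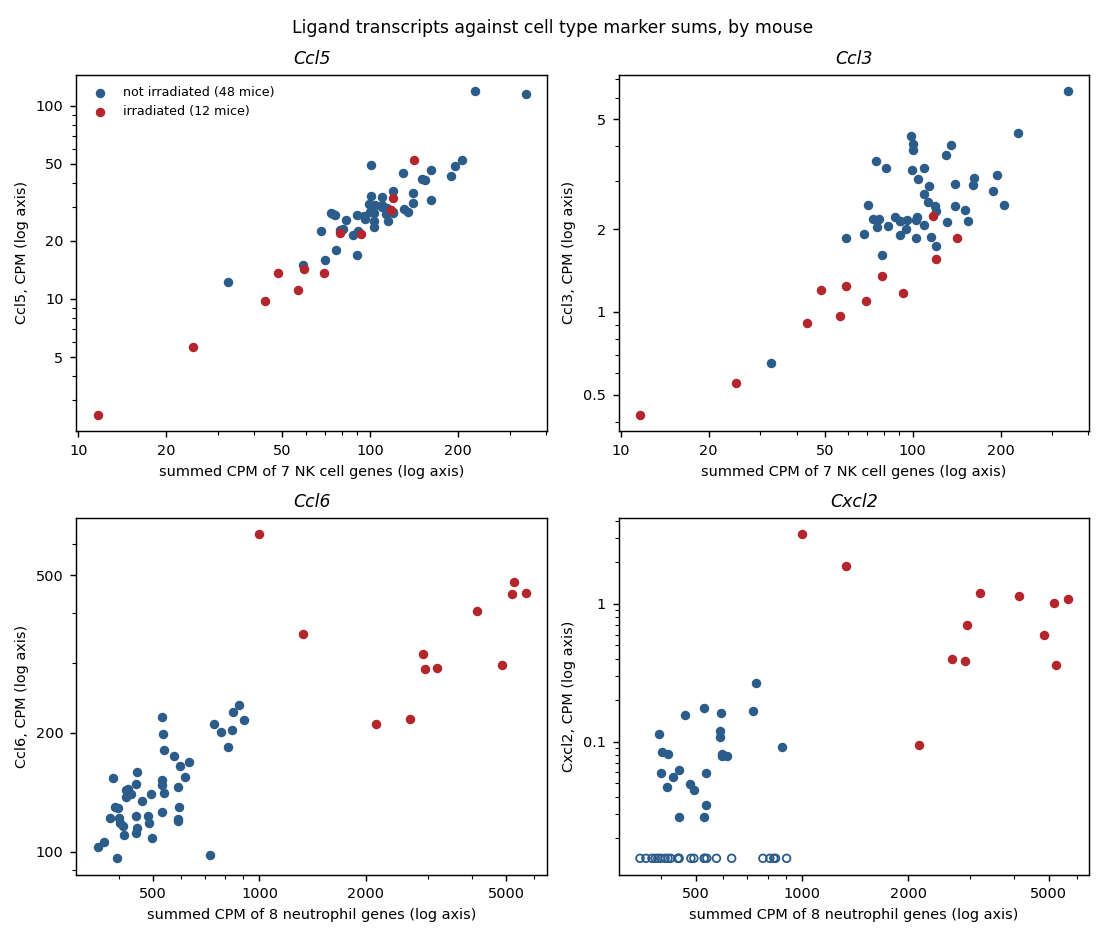
CPM of Ccl5 and Ccl3 against the summed CPM of 7 NK cell genes, and of Ccl6 and Cxcl2 against that of 8 neutrophil genes, all on log axes, with 1 point per mouse (48 unirradiated, 12 irradiated) and open points, set below the lowest value, for mice without a Cxcl2 read. Ccl5 runs along the NK cell sum from 2.51 CPM at a sum of 11.6 CPM to 115 CPM at 340 CPM, while the irradiated mice stand apart from the others in the neutrophil sum.

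Ccl6 and Ccl9 are CC ligands of Ccr1 found in rodents and made by myeloid cells. Ccl6 was the most abundant ligand in all 10 groups on the per-kilobase scale. It ranged from 123 through 144 to 219 CPM without TBI and from 217 through 373 to 635 CPM with TBI, so that the groups met at a single mouse of each. The log2 fold change was 1.34 (SE 0.26, edgeR adjusted p = 0.0011), and it was 1.24 (edgeR adjusted p = 0.00061) without the libraries rich in Alb. The summed level of 8 neutrophil genes was 999 to 5671 CPM after TBI and 385 to 615 CPM without, with 8 of 8 called higher, and its part in the Ccl6 result was not tested.

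Ccl9 was split among the irradiated mice. Vehicle TBI mice 49 and 51 had 51.1 and 259 CPM and High TBI mouse 57 had 140 CPM, while the other 9 irradiated mice ranged from 3.61 to 15.1 CPM. The unirradiated vehicle group ranged from 28.5 through 37.1 to 53.0 CPM. With all mice the log2 fold change was 0.46 (SE 0.86, edgeR adjusted p = 0.67), and without the libraries rich in Alb it was -2.26 (SE 0.28, edgeR adjusted p = 6.8e-06), with means of 7.99 ± 3.31 CPM (SD, n = 4) after TBI and 39.6 ± 9.72 CPM (SD, n = 5) without. The 3 high mice also held the most RNA of tissue macrophages, 216 to 1232 summed CPM over 7 genes such as C1qa, Marco and Vcam1, against 13.7 to 63.5 CPM in the other irradiated mice. Their hepatocyte sums were 6800 to 23556 against 0.955 to 102 CPM, and their adipocyte sums 596 to 914 against 0.418 to 303 CPM. In these 3 libraries the parts of such tissues in the Ccl9 level cannot be told apart, and they were not tested. In the 48 unirradiated mice, Ccl9 was 27.6 to 39.2 CPM in the 7 libraries over 100 CPM of Alb and 10.6 to 53.0 CPM in the other 41.

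**Figure D3:**
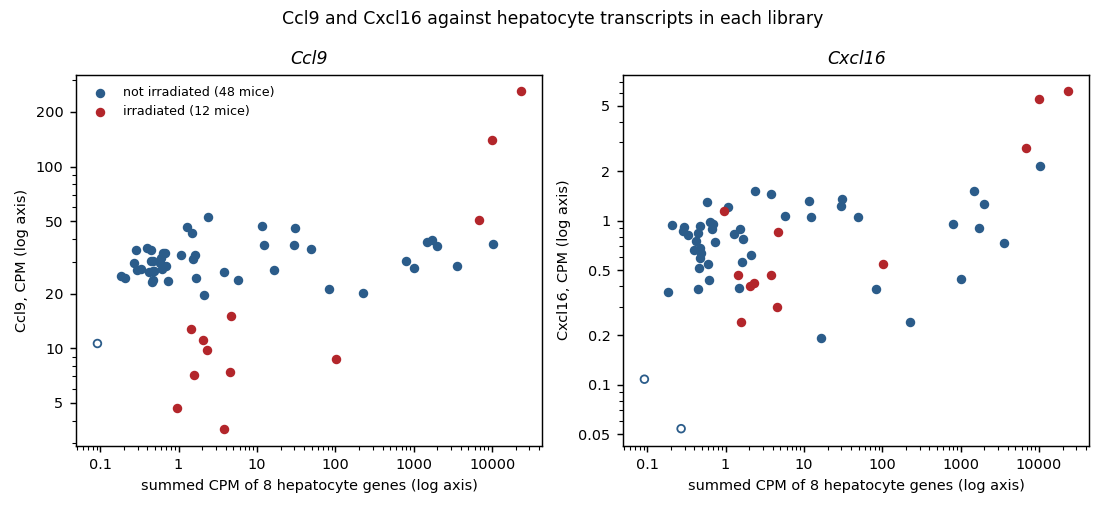
CPM of Ccl9 and Cxcl16 against the summed CPM of 8 hepatocyte genes, on log axes, 1 point per mouse, with open points, set below the lowest value, for mice at 0 on either axis. The 3 irradiated mice with hepatocyte sums of 6800 to 23556 CPM have 51.1 to 259 CPM of Ccl9, the other 9 irradiated mice have 3.61 to 15.1 CPM, and the unirradiated mice stay between 10.6 and 53.0 CPM across the whole axis.

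Cxcl2 (MIP-2), a ligand of Cxcr2 that attracts neutrophils, had the largest fold change of the 8 members. Unirradiated vehicle-treated mice on Day 1 had 0 to 5 reads each, or 0 through a median of 0.0641 to 0.157 CPM, and irradiated mice had 6 to 114 reads, or 0.36 through 0.649 to 3.21 CPM. All 6 irradiated mice exceeded all 6 others, and the log2 fold change was 3.92 (SE 0.71, edgeR adjusted p = 0.00069). Over the summed counts of 195 and 14 reads, the CPM ratio was 18.9 with an exact 95% counting interval of 11.0 to 35.3, which covers counting error only. The highest value belonged to mouse 51, and without the libraries rich in Alb the log2 fold change was 3.6 (edgeR adjusted p = 8.7e-05).

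Cxcl10 (IP-10) is induced by interferon and binds Cxcr3 on T cells and NK cells. It ranged from 0.201 through 0.321 to 0.915 CPM without TBI and from 0.789 through 1.72 to 2.78 CPM with TBI. The groups overlapped at the lowest irradiated mouse, mouse 51, and the log2 fold change was 2.09 (SE 0.42, edgeR adjusted p = 0.0015). Of 12 interferon-stimulated genes, 9 were higher and none lower in this comparison. Among 12 immediate early and NF-kB target genes, 8 were higher and none lower, where 19.6% of all genes were higher and 16.4% lower. The part of either list in the Cxcl10 result was not tested.

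Cxcl16 is a membrane-bound chemokine that binds Cxcr6 and also serves as a scavenger receptor on macrophages and dendritic cells. Vehicle TBI mice 49 and 51 had 2.76 and 6.11 CPM and the other 4 had 0.297 to 0.468 CPM, against 0.663 through 1.15 to 1.51 CPM in the unirradiated vehicle group. With all mice the log2 fold change was 0.57 (SE 0.70, edgeR adjusted p = 0.51). Without the libraries rich in Alb it was -1.41 (SE 0.33, edgeR adjusted p = 0.0022), so both Ccl9 and Cxcl16 turned from higher to lower on leaving out these mice, while 44.2% of all genes were DEGs in that fit.

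Against unirradiated vehicle-treated mice on Day 0, vehicle TBI gave 3 higher members (Ccl6, Cxcl2 and Cxcl10) and 1 lower member (Ccl3), where 26.9% of all genes were DEGs (15.1% higher, 11.8% lower). Ccl3, Ccl6 and Cxcl2 did not overlap between the groups, where 18% of all genes did not. This comparison shares its irradiated mice with the one above. The log2 fold changes were 1.55 for Ccl6 (SE 0.26), 4.19 for Cxcl2 (SE 0.79), 1.83 for Cxcl10 (SE 0.43) and -1.25 for Ccl3 (SE 0.29), with edgeR adjusted p of 0.00059, 0.0013, 0.0053 and 0.0054. Ccl5 (-0.96, edgeR adjusted p = 0.10) and Ccl4 (-0.23, edgeR adjusted p = 0.62) did not pass. Ccl9 (0.81) and Cxcl16 (0.60) did not pass with all mice, and without the libraries rich in Alb they were called lower, at -1.83 (edgeR adjusted p = 1.7e-05) and -1.18 (edgeR adjusted p = 0.017). In that fit 3 members were higher and 3 lower, where 19.6% and 21.4% of all genes were.

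**Figure D4:**
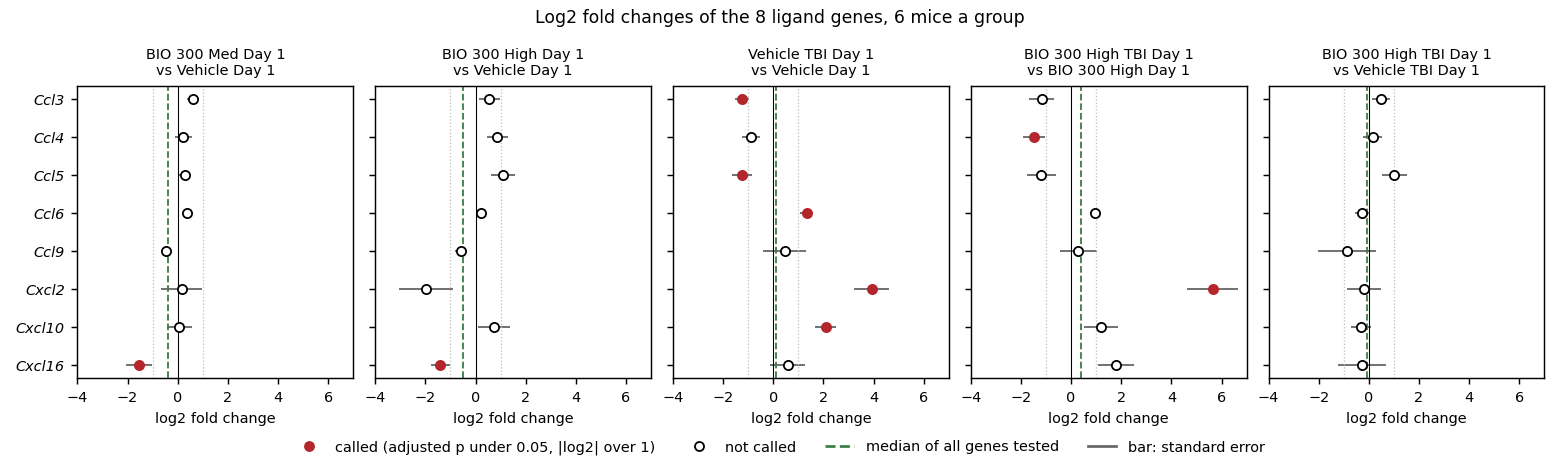
Log2 fold changes of the 8 ligand genes with standard errors in 5 comparisons of 6 mice a group, filled where the gene was a DEG, with dotted lines at the fold limit of 1 in either direction and a dashed line at the median of all genes tested. Cxcl2 lies at 3.92 and 5.65 in the comparisons of irradiated with unirradiated mice, Cxcl16 at -1.55 and -1.41 in the BIO 300 comparisons on Day 1, and no gene is filled between the irradiated groups.

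TBI was then examined in mice given BIO 300 at 200 mg/kg. Against unirradiated High mice on Day 1, Cxcl2 was higher and Ccl4 was lower, 2 of 8 members, where 20.6% of all genes were DEGs (14.9% higher, 5.73% lower), and 3 members had an adjusted p under 0.05 at any fold, where 27.2% of all genes did. Cxcl2 ranged from 0.0955 through 1.08 to 1.87 CPM after TBI, while 5 of 6 unirradiated High mice had no read and the other had 1. The CPM ratio over 188 reads and 1 read was 96.9, with an exact 95% counting interval of 17.2 to 3849, and the fitted log2 fold change was 5.65 (SE 1.02, edgeR adjusted p = 0.0013). The lowest irradiated mouse, mouse 60 with 2 reads, lay under the 1 unirradiated mouse with a read.

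Ccl4 ranged from 0.344 through 0.936 to 1.60 CPM in High TBI mice and from 0.867 through 2.22 to 4.61 CPM in unirradiated High mice on Day 1. The groups overlapped, and the log2 fold change was -1.48 (SE 0.45, edgeR adjusted p = 0.028), a call that was lost in 7 of the 12 fits that left out 1 mouse. Ccl3 (-1.17, edgeR adjusted p = 0.091) and Ccl5 (-1.18, edgeR adjusted p = 0.15) did not pass. Ccl6 had a log2 fold change of 0.95 (SE 0.21, edgeR adjusted p = 0.0046), under the fold limit, with 338 ± 85.0 CPM in irradiated and 168 ± 37.8 CPM in unirradiated mice (mean ± SD, n = 6 each). Cxcl10 (1.19, edgeR adjusted p = 0.20), Cxcl16 (1.80, edgeR adjusted p = 0.076) and Ccl9 (0.28, edgeR adjusted p = 0.80) did not pass. Without mice 43 and 57, the libraries rich in Alb, 5 members were DEGs, with Cxcl10 higher (1.47, edgeR adjusted p = 0.039) and Ccl9 (-1.40, edgeR adjusted p = 0.0028), Ccl3 (-1.15, edgeR adjusted p = 0.035) and Ccl4 (-1.43, edgeR adjusted p = 0.0065) lower beside Cxcl2, where 26.7% of all genes were called.

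The irradiated groups were compared directly to ask whether BIO 300 changed the ligands after TBI. No member was a DEG between High TBI and vehicle TBI, where 0% of 24916 genes were DEGs in edgeR, no member had an unadjusted p under 0.05, where 2.76% of all genes did, and DESeq2 called 0 genes. Log2 fold changes ran from -0.86 for Ccl9 (SE 1.16) to 1.02 for Ccl5 (SE 0.51), with Ccl3 at 0.48, Ccl4 at 0.16, Ccl6 at -0.27, Cxcl2 at -0.19, Cxcl10 at -0.30 and Cxcl16 at -0.28. Ccl5 ranged from 5.64 through 25.4 to 52.2 CPM in High TBI mice and from 2.51 through 12.5 to 21.7 CPM in vehicle TBI mice. The ranges overlapped, the unadjusted edgeR p was 0.067, and the NK cell sum was 24.7 to 141 CPM in the former and 11.6 to 92.5 CPM in the latter.

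The difference between the TBI effects of the High and vehicle treatments was tested as an interaction over 24 mice. In edgeR 0 members passed, where 29.6% of all genes did, 0 had an unadjusted p under 0.05, where 44% of all genes did, and DESeq2 called 0 members. Cxcl2 (1.93, SE 1.31) and Cxcl10 (-0.82, SE 0.79) spanned the interaction values, and Cxcl16 had 1.36 (SE 1.06). Without the libraries rich in Alb, the Cxcl16 interaction was 2.22 (SE 0.59, edgeR adjusted p = 0.0037). In that fit Cxcl16 was lower after TBI in vehicle-treated mice (0.396 ± 0.0721 CPM, n = 4, against 1.07 ± 0.354 CPM, n = 5) and not called in High mice (0.650 ± 0.354 CPM against 0.387 ± 0.183 CPM, SD, n = 5 each).

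BIO 300 without irradiation was examined against vehicle of the same day. On Day 1, Cxcl16 was the 1 member called a DEG, and it was lower both at 100 and at 200 mg/kg, where 48.8% and 47.8% of all genes were DEGs and 30.6% and 30.5% were DEGs with lower levels. Cxcl16 ranged from 0.663 through 1.15 to 1.51 CPM (27 to 53 reads) in vehicle-treated mice on Day 1. It ranged from 0 through 0.305 to 0.734 CPM (0 to 21 reads) in Med mice and from 0.108 through 0.413 to 0.620 CPM (1 to 11 reads) in High mice. On the scale of all 60 mice the High mice lay below the lowest vehicle-treated mouse, while Med mouse 37, a library rich in Alb, lay above it, and on the scale of each pair of groups both comparisons overlapped. The log2 fold changes were -1.55 (SE 0.51, edgeR adjusted p = 0.015) for Med and -1.41 (SE 0.37, edgeR adjusted p = 0.0046) for High. In Low mice on Day 1, Cxcl16 ranged from 0.590 through 0.985 to 1.22 CPM.

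Many genes were lower in these groups, with a median log2 fold change over all genes of -0.38 for Med and -0.48 for High, beside a rise in red cell RNA. The summed level of erythroid genes, on the TMM scale, was 311902 to 568089 CPM in Med and 271899 to 611005 CPM in High mice. It was 76444 to 114517 CPM in vehicle-treated mice. As a share of all counts, haemoglobin genes took 14.0 to 22.5% in Med and 10.8 to 22.1% in High mice. That share was 8.30 to 12.4% in vehicle-treated mice, so the High and vehicle groups overlapped. T cell and B cell sums were lower, at 82.8 to 160 and 238 to 582 CPM in Med mice and 58.0 to 201 and 138 to 468 CPM in High mice against 356 to 446 and 862 to 1331 CPM, with 8 of 8 genes of each list called lower at both doses. The sum of 6 patrolling monocyte genes was 85.0 to 241 CPM in Med and 60.2 to 301 CPM in High mice against 208 to 300 CPM, with 1 of 6 genes called lower at each dose. In the same order, classical monocyte sums were 807 to 1859 and 900 to 1266 against 265 to 476 CPM. Neutrophil sums were 529 to 878 and 391 to 906 against 385 to 615 CPM. Conventional dendritic cell sums were 22.3 to 30.6 and 17.4 to 23.9 against 15.0 to 20.7 CPM. Tissue macrophage sums were 9.33 to 22.1 and 5.42 to 29.8 against 12.8 to 47.4 CPM. Mean log2(CPM + 1) was 4.73 and 4.70 against 5.51 for classical monocytes, and 2.35 and 2.21 against 2.42 for dendritic cells. Gm26917, a non-coding RNA gene, took 1337 to 4538 CPM of all counts in Med and 562 to 14648 CPM in High mice against 53174 to 87695 CPM in vehicle-treated mice. The part of these shifts in the Cxcl16 result was not tested. Relative to the median gene, Cxcl16 lay at -1.17 in Med and -0.92 in High mice under TMM. Scaled by leukocyte genes, Cxcl16 in Med mice had a log2 fold change of -1.19 (edgeR adjusted p = 0.080) and was not called.

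Ccl3, Ccl4 and Ccl5 had higher means at 100 and 200 mg/kg on Day 1. Ccl3 had a log2 fold change of 0.62 (SE 0.23, edgeR adjusted p = 0.030) in Med mice, under the fold limit, with means of 3.34 ± 0.99 CPM against 2.28 ± 0.441 CPM (SD, n = 6 each), and 0.55 (edgeR adjusted p = 0.24) in High mice. Ccl5 had 1.10 (SE 0.48, edgeR adjusted p = 0.056) in High mice and 0.28 (edgeR adjusted p = 0.28) in Med mice. Without mice 29 and 43, the libraries rich in Alb, Ccl5 was called higher in High mice (1.15, edgeR adjusted p = 0.043), where 18.8% of all genes were, and it was also called in 4 of the 12 fits that left out 1 mouse. In High mice, Ccl5 ranged from 12.3 through 36.5 to 120 CPM, and the spread came from mice 44 and 46 at 120 and 115 CPM. These 2 mice also had the highest NK cell sums of the 60, at 229 and 340 CPM, and mouse 47, the lowest in Ccl5 of the unirradiated mice, had the lowest unirradiated sum at 32.6 CPM. Ccl4 had 0.87 (edgeR adjusted p = 0.075) in High mice and 0.22 (edgeR adjusted p = 0.57) in Med mice. With total counts in place of TMM, Ccl3, Ccl4, Ccl5 and Ccl6 turned lower in both comparisons, so their direction depends on the scaling.

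Of the myeloid ligands, Ccl6 had 0.36 (edgeR adjusted p = 0.095) in Med and 0.22 (edgeR adjusted p = 0.29) in High mice. Ccl9 had -0.47 (SE 0.15, edgeR adjusted p = 0.014) in Med mice, under the fold limit, with means of 27.1 ± 4.27 CPM against 39.4 ± 8.71 CPM (SD, n = 6 each), and -0.58 (SE 0.25, edgeR adjusted p = 0.058) in High mice. Relative to the median gene, Ccl9 lay at -0.09 and -0.10 under TMM. Cxcl10 and Cxcl2 did not pass in either group, while of the 12 interferon-stimulated genes 4 were higher and 1 lower at Med and 6 higher and 1 lower at High, where 18.2% and 17.3% of all genes were higher, and Cxcl2 had at most 5 reads in any of these mice. In Med mice 3 members had an adjusted p under 0.05 at any fold, where 65.6% of all genes did.

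**Figure D5:**
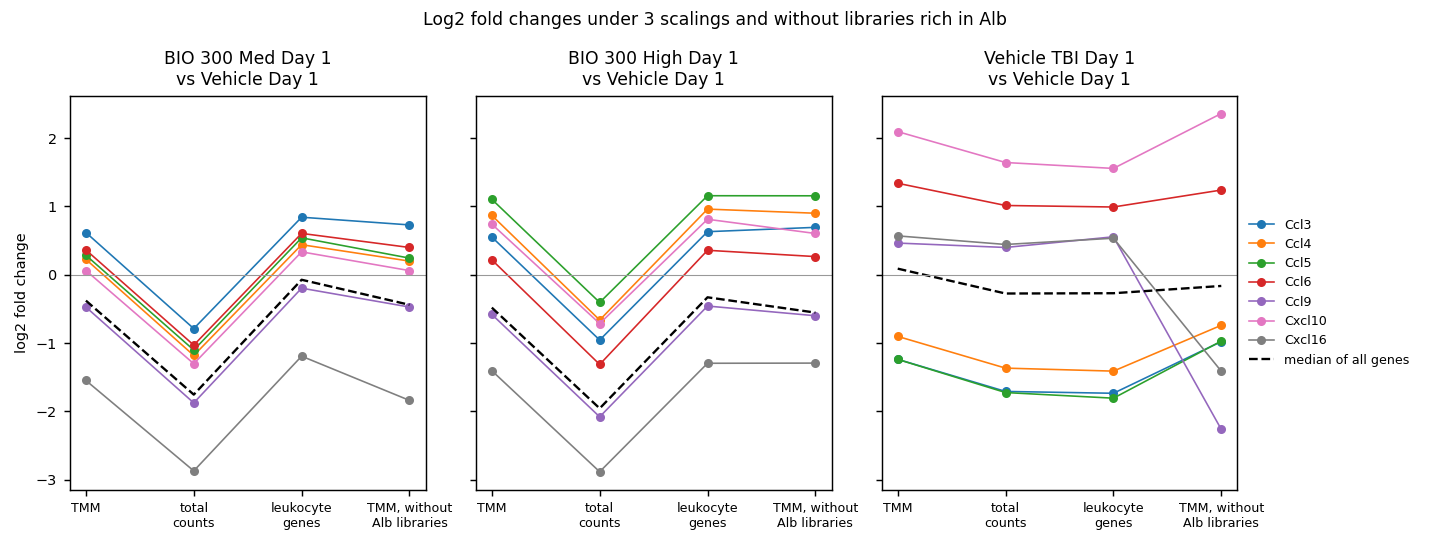
Log2 fold changes of 7 ligand genes (Cxcl2 is left out for its few reads) in 3 comparisons under TMM, total counts and leukocyte gene scaling, and under TMM without the libraries over 100 CPM of Alb, with the median of all genes as a dashed line. In the BIO 300 comparisons Ccl3, Ccl4, Ccl5 and Ccl6 are above 0 under TMM and below 0 under total counts. The median of all genes also falls, from -0.38 to -1.76 in Med and from -0.48 to -1.96 in High mice. After TBI, Ccl9 falls from 0.46 to -2.26 and Cxcl16 from 0.57 to -1.41 when the libraries rich in Alb are left out.

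On Day 0 no member was a DEG at 50, 100 or 200 mg/kg, where 4.5%, 0% and 0% of all genes were DEGs. Ccl4 had the lowest p of the members at each dose, with a log2 fold change of 0.42 (SE 0.21) for Low, 0.72 (SE 0.26) for Med and 0.77 (SE 0.22) for High. Its adjusted p by edgeR were 0.19, 1.00 and 0.55, and its p before adjustment across genes were 0.067, 0.018 and 0.0039 in edgeR's quasi-likelihood test. Its median was 0.890 CPM in vehicle-treated mice and 1.39, 1.51 and 1.68 CPM at the 3 doses, and every group overlapped the vehicle group. The 3 comparisons share these 6 vehicle-treated mice, whose mean Ccl4 of 1.02 CPM was the lowest of the unirradiated groups, so they are not independent. Counted at an unadjusted p under 0.05, there were 0 members at Low, 1 at Med and 1 at High, where 31%, 3.02% and 9.02% of all genes passed, and DESeq2 called 0 members at each dose.

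At 50 mg/kg on Day 1, 0 members were DEGs and 0 had an unadjusted p under 0.05 in edgeR, where 0% and 18.5% of all genes did, and DESeq2 called 68 genes and 0 members. Between vehicle-treated mice of Day 1 and Day 0, 0 members were DEGs and 1, Ccl9, had an unadjusted p under 0.05 in edgeR, where 0% and 12.3% of all genes did, and DESeq2 called 37 genes and 0 members. The difference between BIO 300 effects on Day 1 and on Day 0 was tested as an interaction at each dose, and edgeR called 0 members, where 7.69%, 42% and 36.7% of all genes were called for Low, Med and High. At an unadjusted p under 0.05 there were 1 member (Ccl3), 2 members (Ccl6 and Cxcl16) and 0 members, where 29.1%, 59.6% and 54.9% of all genes passed, and DESeq2 called 0, 1 and 0 members. Cxcl16 had -1.42 (SE 0.63, edgeR adjusted p = 0.058) at Med and -0.94 (SE 0.48, edgeR adjusted p = 0.11) at High. Ccl6 had 0.60 (SE 0.25, edgeR adjusted p = 0.043) at Med, under the fold limit, where 54.2% of all genes had an adjusted p under 0.05.

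The wider chemokine family was examined by lists. Of 30 other ligand genes, 23 could be tested between vehicle TBI and vehicle on Day 1, and 11 were higher and none lower, where 19.6% and 16.4% of all genes were. Among those with at least 10 CPM were the platelet chemokines Pf4 (2.48, SE 0.38) and Ppbp (2.33, SE 0.43) and the stromal ligand Cxcl12 (4.63, SE 1.67, edgeR adjusted p = 0.037). Cxcl12 averaged 44.2 ± 73.7 CPM (SD, n = 6) after TBI, and without the libraries rich in Alb its log2 fold change was 1.71 and 5 of 21 other ligands were higher and 1 lower, where 20.7% and 23.5% of all genes were. Pf4 and Ppbp were also higher on Day 1 at 100 mg/kg (2.99 and 2.88) and 200 mg/kg (2.90 and 2.91), where 5 of 20 other ligands were higher in each and 2 and 4 were lower. Of all genes, 18.2% and 17.3% were higher and 30.6% and 30.5% lower in these comparisons. All 7 platelet marker genes were higher in all 3 of these comparisons.

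Of 23 chemokine receptor genes, 22 could be tested after TBI in vehicle-treated mice, and 6 were higher and 7 lower, where 19.6% and 16.4% of all genes were. Cxcr2, the receptor of Cxcl2, was higher by 3.13 on the log2 scale (SE 0.38). Ccr1, a receptor of Ccl6 and Ccl9 but not of these alone, was higher by 2.87 (SE 0.30), and Ccrl2 by 2.75 (SE 0.37). The lymphocyte receptors Ccr6 (-6.51, SE 0.37), Ccr7 (-3.09, SE 0.44) and Cxcr5 (-2.98, SE 0.29) were lower. Cxcr3, the receptor of Cxcl10, at -0.30 (edgeR adjusted p = 0.49) and Cxcr6, the receptor of Cxcl16, at -0.97 (edgeR adjusted p = 0.11), both named after their values were seen, did not pass. In High mice after TBI, Ccr1 (3.48, SE 0.33) and Cxcr2 (3.37, SE 0.32) were again higher, 6 of 22 receptors in all, and 4 were lower, where 14.9% and 5.73% of all genes were. On Day 1 without TBI, 10 of 22 receptors were lower at 100 mg/kg and 7 of 23 at 200 mg/kg, and 3 were higher at each dose, where 30.6% and 30.5% of all genes were lower and 18.2% and 17.3% higher. With all mice, the shares of receptors at 200 mg/kg were thus near those of all genes. Without the libraries rich in Alb, 11 of 22 receptors were lower at 100 mg/kg and 10 of 23 at 200 mg/kg. In those fits 3 were higher at each dose, and of all genes 30.2% and 33.4% were lower and 19% and 18.8% higher. After TBI in vehicle-treated mice, 6 of 22 receptors were then higher and 10 lower, where 20.7% and 23.5% of all genes were. Cxcr6 had a log2 fold change of -1.64 (edgeR adjusted p = 0.0069) at 100 mg/kg and of -0.65 (edgeR adjusted p = 0.36) at 200 mg/kg, and was named after its values were seen. Without the mice rich in Alb, Cxcr6 passed at 200 mg/kg (-1.37, edgeR adjusted p = 0.033) and after TBI in vehicle-treated mice (-1.18, edgeR adjusted p = 0.046). Ccr7 had -1.86 (SE 0.21) and -2.10 (SE 0.28) at the 2 doses, while Xcr1 was higher, at 2.61 (SE 0.21) and 2.64 (SE 0.17). The named ligands and receptors called in these comparisons kept their sign under scaling by TMM, by total counts and by 4 leukocyte genes.

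Genes with the most similar pattern to each member were found by Pearson r of log2(CPM + 1) over the 60 mice, among 8439 genes with at least 10 CPM in a group. The mice share irradiation, dose and library composition, so r is a description. Ccl5 was most like Gzma (r = 0.95), Ncr1 (0.93) and Klri2 (0.90), genes of NK cells, and within the 48 unirradiated mice these values were 0.91, 0.85 and 0.83. The gene most like Ccl3 was Hist1h3e (r = 0.80), with 0.73 within the unirradiated and 0.016 within the irradiated mice. Ccl5 was itself the second gene most like Ccl3 (r = 0.80) and the first most like Ccl4 (r = 0.79). Ccl3 and Ccl4 had r = 0.75 with each other. Within the 12 irradiated mice, Ccl3 had r = 0.93 with Ccl4 and with Ccl5, and within the 48 unirradiated mice 0.61 and 0.70. Of the irradiated mice, the 3 with libraries rich in Alb had 0.423 to 0.909 CPM of Ccl3 and 2.51 to 9.71 CPM of Ccl5. The other 9 had 0.964 to 2.22 CPM of Ccl3 and 11.2 to 52.2 CPM of Ccl5.

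Ccl6 was most like the Fc receptor gene Fcgr3 (r = 0.91), Atp6v0b and Cyba (0.89 each), and Cxcl10 was most like Fcgr4 (0.88) and the interferon-inducible GTPase genes Gbp2b and Irgm2 (0.86 each). Cxcl2 was most like Padi4 (r = 0.91), Rab11fip5 (0.91) and Plod1 (0.90), and these values were 0.86, 0.86 and 0.82 within the 12 irradiated mice and 0.37, 0.27 and 0.46 within the 48 unirradiated mice, which had 0 to 9 reads of Cxcl2. Ccl6 and Cxcl2 had r = 0.79 over all mice, 0.68 within the irradiated mice and -0.02 within the unirradiated mice. Ccl9 was most like Slc25a5, Ppib (0.91 each) and Psmb6 (0.90). Among the genes most like Cxcl16 were P4hb (0.89) and Pcyox1 (0.88), and without the libraries rich in Alb these were 0.69 and 0.65. Ccl9 and Cxcl16 had r = 0.68 over all mice, 0.42 without those libraries and 0.93 within the 12 irradiated mice.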

How the data were processed

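Whole blood of 60 mice was sequenced as 1 library per mouse. Per the labels and the study's methods, the authors used Trimmomatic 0.36 for trimming, STAR 2.5.2b for alignment to GRCm38 and Subread 1.5.2 for gene-level counting. The deposited tables hold these counts, unnormalized. The labels name polyA selection and the methods a ribosomal and globin RNA depletion kit, and the counting strand is not given in the sources used here. The authors' deposited fold changes, p-values and normalized columns were not used. The labels give no batch.

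Groups were taken from the labels. Each pair of groups (12 mice) or interaction (24 mice) was fitted on the whole table with edgeR 4.0.16 (TMM, glmQLFit, glmQLFTest, limma 3.58.1, R 4.3.3) on genes with at least 10 counts in sum, with Benjamini-Hochberg adjustment over all genes tested. The DEG limits were an adjusted p of 0.05 and a log2 fold change of 1 in size. Levels, markers and similarity use TMM over all 60 mice, and each fold change uses TMM within its own fit. The alternatives were total counts, DESeq2 1.42.0, filterByExpr, leaving out libraries over 100 CPM of Alb, leaving out each mouse and, chosen after seeing the data, scaling by Ptprc, Laptm5, Coro1a and Cd53. The fits were tested on simulated data. Replicates are separate mice. Members, gene lists and motifs were chosen with earlier results of these data known. Other genes of a list were named where they were DEGs with at least 10 CPM in a group, at most 6 per list by absolute log2 fold change, with Pf4 and Ppbp allowed always, and similar genes were the 3 with the highest r. Some genes that this rule names are not reported here.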

Additional observations from a re-analysis of the deposited data

Results flagged for a closer look

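Among 80 sets of 1 gene in 1 group of 6 mice, 13 had a highest mouse that was flagged as apart. Its gap to the next, divided by the range of the group, exceeded Dixon's 95% critical value for 6 samples. That value flags about 1 in 20 sets of independent normal values. Here the sets share mice and Cxcl2 has few reads, so the count of flagged mice cannot be set against that rate. Mouse 25 of the vehicle group on Day 1 was flagged for 4 ligands, at 3.14 CPM for Ccl3, 48.8 CPM for Ccl5, 219 CPM for Ccl6 and 0.915 CPM for Cxcl10. Its summed NK cell markers of 195 CPM were the highest of its group. Mouse 9 of the Med group on Day 0 had 52.4 CPM of Ccl5 and an NK cell sum of 206 CPM, and mouse 38 of the Med group on Day 1 had 49.4 CPM of Ccl5. In the irradiated groups, vehicle mouse 51 stood apart in Ccl9 (259 CPM) and Cxcl2 (3.21 CPM), and High mouse 57 in Ccl9 (140 CPM) and Cxcl16 (5.47 CPM), both of them libraries over 100 CPM of Alb. The other 3 were Cxcl2 in unirradiated mice, at 0.162 CPM in mouse 22 (High, Day 0), 0.268 CPM in mouse 31 (Low, Day 1) and 0.108 CPM in mouse 47 (High, Day 1), where the last of these values is a single read.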

How the results depend on the processing

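No paired analysis was possible because each mouse has its own number and no number is shared between groups. With total counts in place of TMM, 6 members were called at Med on Day 1, 4 at High on Day 1, 1 at Low on Day 0, and 3, 4 and 2 in the day interactions of Low, Med and High, where 66.3%, 68.5%, 11.7%, 40.2%, 59.9% and 54.9% of all genes were called. That scaling turned Ccl3, Ccl4, Ccl5 and Ccl6 to -0.79, -1.18, -1.10 and -1.03 at Med on Day 1 and to -0.96, -0.66, -0.41 and -1.31 at High on Day 1, Ccl6 to -0.88 in the Med day interaction and Cxcl10 to 0.21 in the TBI interaction, and the median of all genes was -1.76 and -1.96 on Day 1 under it. DESeq2 called 2 members at High on Day 1, 4 in High TBI against High and 1 in the Med day interaction (45.1%, 20.4% and 39.7% of all genes), filterByExpr called 2 and 1 in the former 2 comparisons (50.2% and 25.3%), and scaling by 4 leukocyte genes, chosen after seeing the data, called 0 at Med on Day 1, 2 at High on Day 1 and 4 in High TBI against High (46.4%, 46.4% and 21.9%). In vehicle TBI against Day 0, 3 members were higher and 3 lower without the libraries over 100 CPM of Alb. Of all genes, 41.1% were called in that fit. Without the libraries over 100 CPM of Alb, 2 members were called at High on Day 1, 5 in High TBI against High, 1 in the TBI interaction and 1 in the Med day interaction (52.1%, 26.7%, 41.8% and 39.4%). Leaving them out turned Ccl9 and Cxcl16 to -2.26 and -1.41 in vehicle TBI against Day 1 and to -1.83 and -1.18 against Day 0, Ccl9 to -1.40 in High TBI against High, and Cxcl2, Cxcl16 and Ccl9 to 0.29, 0.67 and 0.23 in High TBI against vehicle TBI.

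Leaving out 1 mouse gave 1 to 4 called members at High on Day 1 (2 without mouse 43 or 45, 4 without mouse 47, 3 without mouse 25), 1 to 4 in High TBI against High (1 without mouse 55, 4 without mouse 47 or 57), 4 to 5 in vehicle TBI against Day 0 and 4 to 6 against Day 1. Without mouse 51, Ccl9 and Cxcl16 turned lower in vehicle TBI against Day 1 (ranges over the 12 fits -1.27 to 0.71 and -0.40 to 0.79) and Day 0 (-0.83 to 1.12 and -0.30 to 0.92), and higher in High TBI against vehicle TBI (-2.65 to 0.93 and -1.54 to 0.73), as did Cxcl2 (-0.55 to 0.60, also without mouse 60). Ccl4 in that comparison ranged from -0.054 to 0.34 and turned without mouse 56, and Ccl9 in High TBI against High ranged from -1.27 to 0.72 and turned without mouse 57. The Ccl5 call in vehicle TBI against Day 1 was lost without mouse 25, 49 or 51 (edgeR log2 fold change of -1.15 without mouse 49, at the fold limit without the others). Ccl4 in High TBI against High ranged from -1.70 to -1.14, Ccl5 at High on Day 1 from 0.74 to 1.32. The cause of these changes was not tested. Depth limits Cxcl2, Cxcl10 and Cxcl16 most, with 0 to 5, 0 to 32 and 0 to 53 reads a mouse in the vehicle, Med and High groups on Day 1.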
